A study of Mus musculus with 16 samples.

Results

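CD8 T cells lacking the transcription factor Batf3 (ko) were compared with wild-type cells late in culture, at 72 h. This comparison uses 8 of the 16 samples of the series, 4 libraries labelled wild type at 72 h and 4 labelled Batf3 ko at 72 h; the other 8 hold the same genotypes at 48 h. Both groups are labelled C57BL/6 and came from spleen by enrichment of CD8 T cells, with no further sort named. All cells received plate-bound anti-CD3e and anti-CD28 at 1 µg/ml each, which engage the T cell receptor and its costimulatory partner, in medium with the cytokine IL-15 at 50 ng/ml. The series text describes the libraries, 4 per condition, as technical replicates, so a p-value reflects how such libraries vary and says nothing of variation among mice. The sources used here give neither the number of mice, nor their age, nor how the Batf3 allele was made.

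Batf3 is a small basic leucine zipper protein of the AP-1 group. It has no activation domain of its own, pairs with Jun proteins, and binds AP-1 sites and composite AP-1 and IRF sites in DNA. In T cells it is induced by receptor stimulation, next to its relative Batf. Antigen receptor and CD28 signals act through NFAT, NF-kappa B and AP-1 factors and start growth, division and cytokine production, while IL-15 signals through STAT5 and supports survival and killing functions.

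The deleted gene was read first. Batf3, on chromosome 1 (chr1:191097847-191108945 in GRCm38), had 32.7, 31.1, 26.9 and 28.5 CPM (reads of the gene per megaread of the library, after scaling) in the 4 wild-type libraries. Its raw counts in the 4 ko libraries were 0, 0, 11 and 0, in keeping with the labels of all 8 libraries. Cd8a, a chain of the CD8 co-receptor, averaged 333 ± 5.32 CPM (SD, n = 4) in wild-type and 322 ± 8.16 CPM (SD, n = 4) in ko cells, a log2 fold change of -0.05 (SE 0.05) that did not pass (with library-size scaling it passed, at -0.17). Of 16 T cell identity genes 5 were higher and 1 was lower, where 16.9% of all genes tested were higher and 19.5% lower. Cd3d (0.53) and Cd3g (0.54), chains of the T cell receptor complex, were among the higher. Library totals at 72 h ran from 29375818 to 35693476 counts. Where a gene has no count, a level of up to 3 counts is allowed, equal to 0.0819 to 0.106 CPM (counting error only). The 2 genotypes separated along the first principal component of the 8 libraries, which held 68.9% of the variance over 9284 genes, and wild-type replicate 4 stood apart on the second (12.8%).

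Other cell types were followed by markers. Of 12 B cell markers 8 stayed below 1 CPM in all 8 libraries, including Ms4a1 and Cd79a. The list summed to 222 to 281 CPM in wild-type and 321 to 354 CPM in ko cells, most of it Ighm (246 ± 25.6 and 332 ± 15.2 CPM; SD, n = 4 each). Of 20 macrophage, monocyte and granulocyte markers 16 stayed below 1 CPM, and Adgre1, S100a8, S100a9, Elane, C1qa and C1qb had no count in any of the 8 libraries. Most of the list was Ly6c2, which effector CD8 T cells also make, and it summed to 179 to 202 CPM in wild-type and 271 to 287 CPM in ko cells. Its 4 tested members, Ly6c2, Ccr2, Cd68 and Fcgr3, were all higher in ko cells. The 15 NK and gamma delta T cell markers summed to 292 to 368 CPM in wild-type and 326 to 411 CPM in ko cells. Of the 15 markers 6 were higher and 1 was lower, while Ncr1, Klra8, Klra4 and Sox13 stayed below 1 CPM. In bulk RNA, fewer cells of a type and less RNA per cell cannot be told apart.

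Because Batf3 acts at AP-1 sites, promoters of genes that moved are shown with that motif. RefSeq start-site windows for GRCm38.p6 (250 bases before to 50 after the start, 300 in all) matched 10149 of the tested genes by symbol. The letters TGANTCA, searched on both strands, occurred in 6.09% of these and in 8.97% of all 27025 genes with a window. They occurred in 7.78% of genes higher in ko cells, 5.18% of genes lower and 5.97% of genes not called. Among genes at least 2-fold higher the share was 15.9% (23 of 145), and among genes at least 2-fold lower 8.49% (9 of 106). A match describes letters and not binding. The whole window of AA467197 (chr2:122637637-122637936, plus strand), a clone-named gene that rose, follows 5′ to 3′ with the motif in capitals.
AA467197: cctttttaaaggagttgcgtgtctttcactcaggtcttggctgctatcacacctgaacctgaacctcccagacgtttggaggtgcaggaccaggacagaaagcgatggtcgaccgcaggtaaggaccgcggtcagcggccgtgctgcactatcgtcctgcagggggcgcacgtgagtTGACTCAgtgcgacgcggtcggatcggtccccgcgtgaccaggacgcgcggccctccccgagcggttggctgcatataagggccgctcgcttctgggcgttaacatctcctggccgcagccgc
The window of Ccr4 (chr9:114496495-114496794, minus strand), a chemokine receptor that was lower, reads as follows.
Ccr4: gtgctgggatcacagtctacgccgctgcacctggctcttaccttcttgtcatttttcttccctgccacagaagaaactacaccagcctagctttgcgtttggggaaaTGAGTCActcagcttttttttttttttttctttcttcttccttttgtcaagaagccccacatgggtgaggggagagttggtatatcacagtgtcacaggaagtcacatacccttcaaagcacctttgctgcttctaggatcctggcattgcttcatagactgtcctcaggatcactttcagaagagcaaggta
The stretch around the motif is given for 3 further genes that were higher, Sdcbp2 (chr2:151572559-151572605), Fgl2 (chr5:21372637-21372683) and Mt2 (chr8:94172519-94172565), all on the plus strand.
Sdcbp2: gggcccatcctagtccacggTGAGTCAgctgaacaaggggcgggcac
Fgl2: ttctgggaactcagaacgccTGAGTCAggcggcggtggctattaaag
Mt2: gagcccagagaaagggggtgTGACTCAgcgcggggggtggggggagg

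In all, 2565 genes were higher in ko cells and 2961 were lower, among 15197 tested (edgeR quasi-likelihood test, Benjamini-Hochberg adjusted p below 0.05). These are 16.9% and 19.5% of the genes tested and form the background against which each gene list below is read. The median log2 fold change over all genes was -0.02. Most differences were small, with a median of 1.33-fold among the higher and 1.29-fold among the lower genes. At least 2-fold differences were found for 244 higher genes (1.61%) and 176 lower genes (1.16%). Scaling by library size alone lowered the median of all genes to -0.14 and the share of calls that were higher from 46.4% to 23.5%, with 1464 genes higher and 4779 lower. Values in parentheses after a gene are log2 fold changes of ko against wild type. Directions below are relative to the typical gene, and counts with that scaling are given for some lists. Counts given without it can move too.

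**Figure D1:**
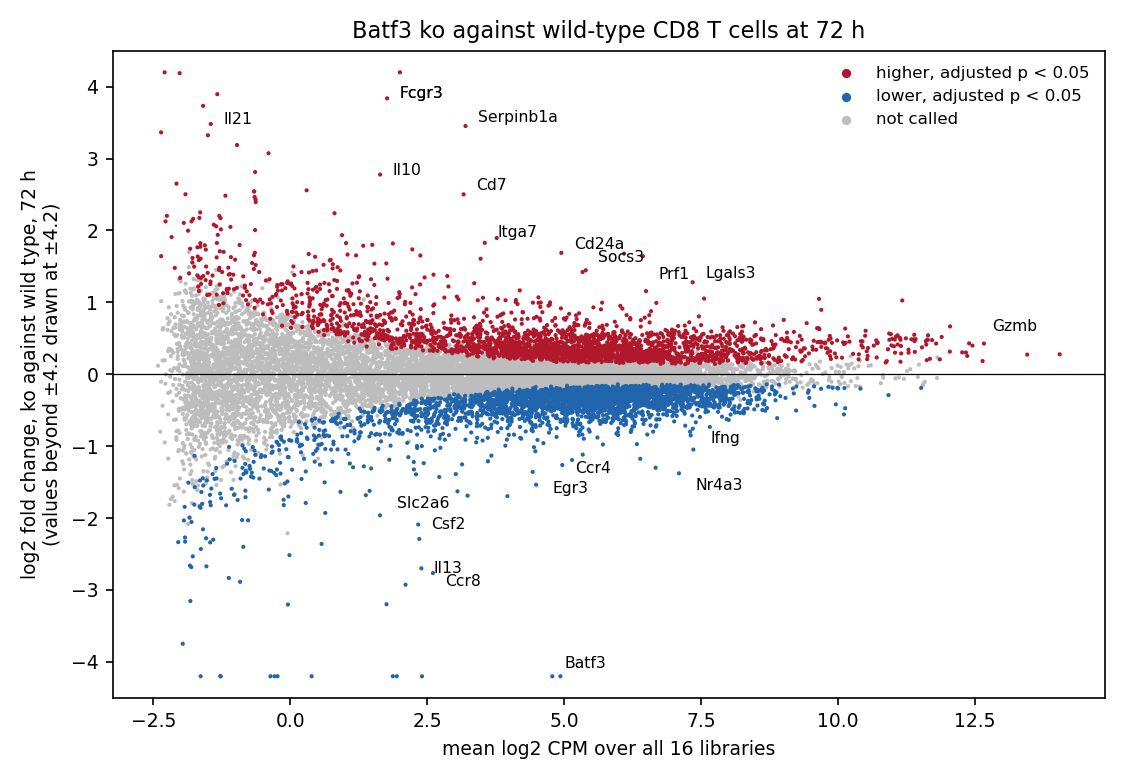
Log2 fold change of ko against wild type at 72 h (vertical axis) against mean log2 CPM over the 16 libraries (horizontal axis), one point per tested gene, with red for higher, blue for lower and grey for genes not called. Most called genes lie within 1 log2 unit of 0, while Serpinb1a at 3.45, Cd7 at 2.50, Ccr8 at -2.77 and Csf2 at -2.09 stand far from it.

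The genes described first are among the largest rises of genes with a mean log2 CPM of at least 3 and groups that did not overlap. Serpinb1a, an inhibitor of neutrophil-type serine proteases, had 3.18, 3.25, 1.69 and 2.696 CPM in the wild-type libraries and 29.2, 31.1, 30.5 and 28.3 CPM in the ko libraries. The groups were far apart, with a log2 fold change of 3.45 (SE 0.14, adjusted p = 9.2e-15, edgeR), or 10.96-fold. Cd7, a surface glycoprotein of T and NK cells, had 6.21, 5.65, 4.78 and 4.69 CPM in wild-type and 28.03, 31.1, 32.2 and 29.9 CPM in ko cells. It rose by 2.50 (SE 0.14, adjusted p = 6.3e-12, edgeR), with every ko library above every wild-type library. Itga7, the integrin chain that binds laminin, had 11.7, 11.9, 7.01 and 7.17 CPM against 35.8, 34.96, 33.8 and 30.1 CPM. It differed by a log2 fold change of 1.83 (SE 0.15, adjusted p = 8.3e-09, edgeR), and wild-type replicates 3 and 4 were the lowest of the 8. Cd24a, a small mucin-like glycoprotein, had 20.2, 21.2, 8.89 and 12.3 CPM in wild-type and 63.1, 65.02, 39.04 and 35.1 CPM in ko libraries, a change of 1.69 (SE 0.32, adjusted p = 0.00125, edgeR). Replicates 3 and 4 lay below replicates 1 and 2 in both genotypes, but those of ko cells were still above all wild-type libraries.

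Socs3, a feedback inhibitor of cytokine receptors, had 27.1, 26.6, 20.8 and 20.04 CPM in wild-type and 66.7, 76.3, 54.2 and 60.3 CPM in ko cells. It was 2.72-fold higher, a log2 fold change of 1.45 (SE 0.14, adjusted p = 1.9e-07, edgeR). Lgals3, which encodes galectin-3, had 179.95, 172, 150.4 and 167 CPM against 404, 423, 391 and 408 CPM and rose by 1.28 (SE 0.07, adjusted p = 5.5e-12, edgeR). Also among the 15 largest rises under the rule for named genes were Fam241a (1.42), the scaffold gene Sdcbp2 (1.27), the stress-induced chromatin factor Nupr1 (1.17), the pore-forming protein gene Prf1 (1.16), complement component C3 (1.08), the chemokine receptor Ccr2 (1.07) and the G protein subunit Gngt2 (1.06). AA467197, outside that rule because of its clone name and singled out after its values were seen, had 8.28 ± 1.83 CPM (SD, n = 4) in wild-type and 30.8 ± 3.14 CPM (SD, n = 4) in ko cells (1.90, SE 0.12).

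Hspa1a and Hspa1b, the inducible HSP70 chaperones, completed those 15. Hspa1a had 106, 101, 25.8 and 24.5 CPM in wild-type and 184, 194, 243 and 201 CPM in ko libraries. The groups did not overlap, but wild-type replicates 1 and 2 were about 4 times as high as replicates 3 and 4. The log2 fold change came to 1.68 (SE 0.40, adjusted p = 0.00601, edgeR), and the call was lost when only the 72 h libraries were fitted (adjusted p = 0.0579, edgeR). Hspa1b (1.64) is a near-identical copy, so reads of the pair are uncertain, and its call was lost in the same way (adjusted p = 0.0549, edgeR). Hspb1, a small heat shock protein, showed the same division of the wild-type libraries, with 2.12, 2.05, 0.382 and 0.1903 CPM against 4.72, 5.96, 7.04 and 5.03 CPM in ko cells.

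The falls described next, beside Batf3, are among the largest under the same conditions, and larger falls outside them are given further on. Rxra, the partner receptor of many nuclear hormone receptors, had 5.37, 5.51, 5.61 and 4.44 CPM in wild-type and 1.63, 1.78, 1.42 and 1.93 CPM in ko cells, a log2 fold change of -1.63 (SE 0.14, adjusted p = 1.4e-08, edgeR). Slc2a6, a glucose transporter family member of internal membranes, had 9.02, 10.6, 11.7 and 10.3 CPM against 2.36, 2.23, 3.68 and 4.68 CPM and was 3.22-fold lower (-1.69, SE 0.17). Penk, which encodes the opioid peptide precursor proenkephalin, had 9.68, 10.6, 13.9 and 11.2 CPM in wild-type and 4.39, 4.24, 4.88 and 5.504 CPM in ko cells (-1.25, SE 0.12). In each of these 3 genes the groups were separate.

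Epas1, the hypoxia-inducible factor HIF-2 alpha, had 28.03, 26.7, 28.1 and 24.3 CPM in wild-type and 12.4, 12.1, 9.77 and 14.6 CPM in ko libraries, a change of -1.13 (SE 0.12, adjusted p = 1.6e-07, edgeR). Its paralog Hif1a did not pass, at 0.04 (SE 0.06). The rule also named Ccdc184 (-1.69), Cemip2 (-1.36), a transmembrane hyaluronan-binding protein, the semaphorin receptor Plxna1 (-1.21) and Lad1 (-1.12).

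**Figure D2:**
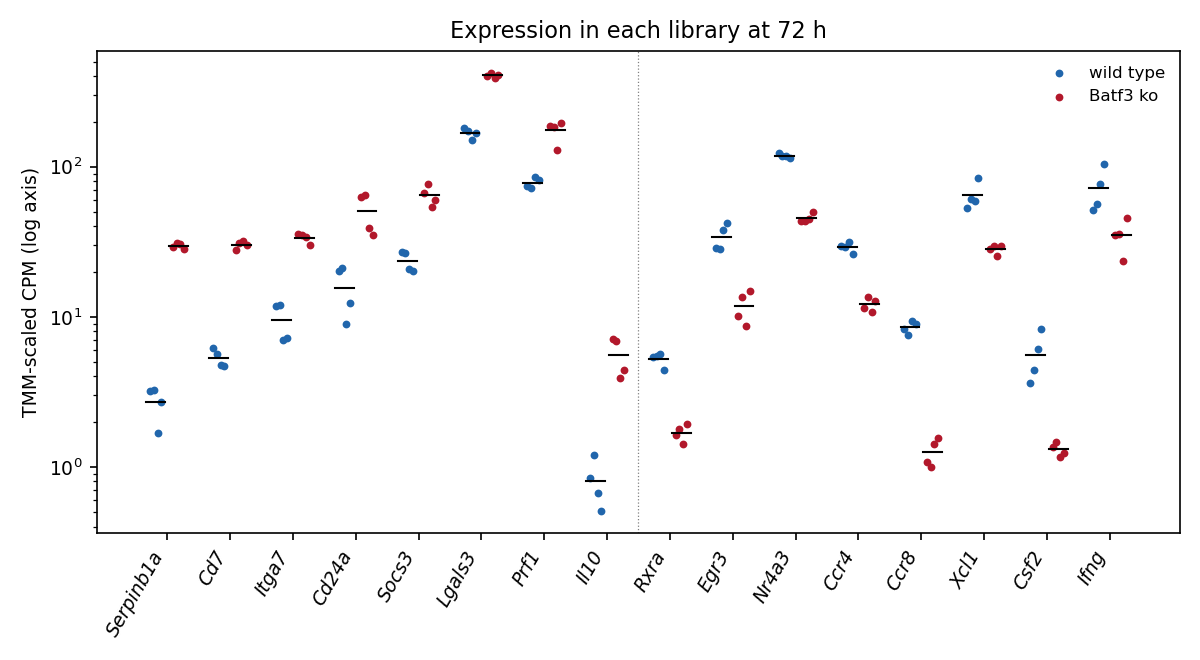
TMM-scaled CPM in each of the 8 libraries at 72 h on a log axis, wild type in blue and ko in red, with the group mean as a black bar. In the 8 genes on the left the ko libraries are higher and in the 8 on the right lower. The groups do not overlap in any of the 16 genes.

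Early response genes of the NR4A and EGR families were lower. These transcription factors are induced within hours by antigen receptor signals. Of 8 tested members 6 were lower and 1, the EGR corepressor gene Nab1 (0.30), was higher. The median log2 fold change was -0.89. Nr4a3 had 123, 118, 117 and 114 CPM in wild-type and 43.4, 43.5, 44.5 and 50.3 CPM in ko libraries (-1.38, SE 0.07, adjusted p = 2.2e-12, edgeR). Egr3 had 28.8, 28.3, 37.7 and 42.1 CPM against 10.1, 13.5, 8.64 and 14.8 CPM (-1.54, SE 0.15, adjusted p = 1.5e-07, edgeR), and here wild-type replicates 3 and 4 were the highest. Egr2 (-1.39), Nr4a2 (-1.07), Nr4a1 (-0.71) and Egr1 (-0.61) fell too. Of 21 AP-1, BATF, NFAT and IRF genes, 3 were higher and 6, with Batf3, were lower. Jun, a dimer partner of Batf proteins, had 28.7, 30.3, 26.9 and 24.4 CPM in wild-type and 41.03, 42.5, 44.6 and 49.3 CPM in ko cells (0.68, SE 0.09). Batf rose by 0.37 (SE 0.06), while Irf4, the factor that binds composite sites with Batf, fell by 0.36 (SE 0.08). Nfatc1 was lower at -0.52 (SE 0.07) and Bach2, a repressor at AP-1 sites, at -0.38 (SE 0.09).

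Signalling genes downstream of the receptor went both ways. Of 43 members 10 were higher and 15 lower, with a median of -0.05. NF-kappa B subunit genes were among the lower ones. Nfkb1 had 399, 369.6, 377 and 337 CPM in wild-type and 264, 271, 253 and 283 CPM in ko cells (-0.47, SE 0.07), Rel was at -0.49 (SE 0.07) and Nfkb2 at -0.38 (SE 0.08). The adaptor gene Lcp2 (-0.41) and the phospholipase gene Plcg1 (-0.31) also fell. Higher were Ubash3b (0.79), which encodes a phosphatase that dampens receptor signals, the phosphatase gene Ptpn2 (0.48), and Malt1 (0.35), which acts upstream of NF-kappa B. With library-size scaling 5 members were higher and 21 lower.

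Cytokine genes were mostly lower. Of 19 effector cytokine genes 11 were lower and 4 higher, with a median log2 fold change of -0.46. Ifng, the cytokine interferon gamma, had 51.5, 56.1, 77.04 and 105 CPM in wild-type and 34.8, 35.8, 23.5 and 45.6 CPM in ko libraries (-1.05, SE 0.22, adjusted p = 0.00251, edgeR). All ko libraries lay below all wild-type libraries, but the wild-type values spread over a factor of about 2. Csf2, which encodes GM-CSF, had 3.62, 4.42, 6.09 and 8.28 CPM against 1.35, 1.47, 1.17 and 1.23 CPM, a change of -2.09 (SE 0.21, adjusted p = 1.3e-07, edgeR). The chemokine gene Xcl1, whose product attracts XCR1-bearing dendritic cells, had 53.3, 60.7, 59.2 and 84.7 CPM in wild-type and 28.3, 29.7, 25.4 and 29.4 CPM in ko cells (-1.19, SE 0.12, adjusted p = 2.4e-07, edgeR). It was the only lower one of 7 tested chemokine genes, of which 2 were higher. These were Ccl4 (0.71) and Ccl5 (0.40), both calls lost with exon length offsets and the latter also with library-size scaling.

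Lower TNF family ligands were Tnfsf14, which encodes LIGHT (-0.84), Lta (-0.80), Tnfsf8 (-0.99) and Tnfsf11 (-0.53). Ebi3, a subunit of IL-27 and IL-35, was at -0.84, Il3 at -1.28, Lif at -0.77 and Tgfb1 at -0.46. Tnf was just past the threshold at -0.40 (SE 0.15), and its call was lost in 15 of 27 alternatives. Il2 had 0.936, 1.01, 1.31 and 1.65 CPM in wild-type and 0.644, 1.93, 0.672 and 1.83 CPM in ko libraries and did not pass (0.07, SE 0.38). Higher cytokine genes were Il10, Il21, Osm (0.56) and Ltb (0.39). Il10, an immunoregulatory cytokine, had 0.843, 1.201, 0.669 and 0.507 CPM in wild-type and 7.15, 6.89, 3.93 and 4.397 CPM in ko cells (2.78, SE 0.23, adjusted p = 7.2e-09, edgeR). Il21 stayed below 1 CPM in every library.

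Type 2 genes, the programme of helper cells that make IL-4, IL-5 and IL-13, were also lower. Of 12 tested members 7 were lower, 6 of them at least 2-fold, and 1, Nfil3 (0.50), was higher. Ccr8, a chemokine receptor of type 2 and skin-homing cells, had 8.27, 7.59, 9.43 and 8.88 CPM in wild-type and 1.07, 0.993, 1.42 and 1.55 CPM in ko libraries (-2.77, SE 0.16, adjusted p = 6.3e-12, edgeR). Il13 had 6.02, 6.904, 9.56 and 10.2 CPM against 1.196, 1.08, 0.885 and 1.83 CPM (-2.699, SE 0.20). Ccr4, whose promoter is printed above, had 29.7, 29.4, 31.3 and 26.2 CPM against 11.5, 13.4, 10.8 and 12.7 CPM (-1.26, SE 0.10, adjusted p = 1.3e-09, edgeR). Gata3, the master regulator of the type 2 programme, had 19.6, 20.1, 26.1 and 19.8 CPM in wild-type and 10.6, 11.1, 11.6 and 12.3 CPM in ko cells (-0.91, SE 0.13). In each of these 4 genes the groups were separate. Of 7 markers of CD4 and regulatory T cells 3 stayed below 1 CPM in all 8 libraries, Cd4, Cd40lg and Foxp3. None of the 6 tested was called. The list summed to 1793 to 2362 CPM in wild-type and 2158 to 2538 CPM in ko cells. Most of this was Ctla4 (904 to 1410 and 1262 to 1514 CPM) and Il2ra (779 to 863 and 761 to 921 CPM). The part of this list in the type 2 result was not tested.

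Killing genes were higher. Of 24 cytotoxic granule genes 15 were higher and 1, Fasl (-0.30), was lower, with a median of 0.37. Prf1 had 74.6, 72.3, 85.1 and 81.4 CPM in wild-type and 188, 184, 130.2 and 196 CPM in ko libraries, and ko replicate 3 was the lowest of its group. Gzmb, granzyme B, had 5229, 5406, 4639 and 4994 CPM against 7529, 7063, 6179 and 6487 CPM (0.43, SE 0.06, adjusted p = 1.9e-05, edgeR). Gzma was 1.77-fold higher and Gzmk 2.55-fold higher, the latter from 2.15 ± 1.03 CPM (SD, n = 4). Granule packaging genes rose as well, with Srgn, the proteoglycan serglycin, at 0.45, Nkg7 at 0.47, the cathepsin gene Ctsw at 0.56 and Lamp2 at 0.61. Serpinb9 (0.36) and Serpinb6b (0.64), inhibitors that protect cells from granzymes and cathepsins, were higher beside Serpinb1a. In the same libraries 6 of the 15 NK and gamma delta T cell markers were higher and 1 was lower. Their summed levels, mostly Klrk1, overlapped between the groups, but the levels of Tyrobp, Klrb1c and Klre1 did not. The part of these markers in the granule result was not tested.

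Killer cell lectin-like receptors, which on NK and activated CD8 T cells read MHC class I and related ligands, were higher too, with a median of 0.78. Of 16 members 10 were higher, and the other 6 did not pass. Klrc1, which encodes NKG2A, had 20.2, 24.4, 20.3 and 32.6 CPM in wild-type and 48.9, 47.7, 52.1 and 46.3 CPM in ko libraries (1.00, SE 0.12, adjusted p = 2.3e-06, edgeR). Klrd1, the CD94 chain that pairs with it, had 51.7, 63.9, 63.4 and 93.9 CPM against 89.1, 96.1, 119 and 98.4 CPM (0.56, SE 0.15), and wild-type replicate 4 overlapped the ko group. Klre1 was at 1.03 (SE 0.12), Klra7 at 0.77 and Klra3 at 1.12. Klra genes are close relatives, so their reads are uncertain. Several of these receptors are also NK cell markers, and their part in this result was not tested. Klrg1, a marker of terminal effector cells, stood at -0.59 (SE 0.59) and did not pass.

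Receptors for inhibition, costimulation and homing went both ways. Of 15 inhibitory receptor and ligand genes 8 were higher and 1, Pdcd1lg2 (-0.80), was lower. Nt5e, the ectoenzyme CD73 that makes adenosine, had 27.4, 27.9, 21.7 and 20.9 CPM in wild-type and 51.6, 49.5, 48.5 and 45.7 CPM in ko cells (0.99, SE 0.16, adjusted p = 8.1e-05, edgeR). Lag3 (0.50), Tigit (0.55), Havcr2 (0.52) and Vsir (0.48) rose. Pdcd1, which encodes PD-1, rose by 0.22 (SE 0.06), a call lost with library-size scaling and with exon length offsets (adjusted p = 0.331 and 0.133, edgeR). The homing list of 25 had 10 higher and 4 lower members, and 8 and 6 with library-size scaling. Ccr2 had 22.9, 25.1, 17.5 and 26.7 CPM in wild-type and 52.2, 49.2, 46.2 and 45.8 CPM in ko libraries. Cxcr6, a receptor of tissue-resident cells, had 22.3, 28.3, 23.8 and 29.7 CPM against 56.3, 49.05, 53.3 and 49.3 CPM (1.00, SE 0.09, adjusted p = 1.9e-08, edgeR). Klf2, which drives lymphoid homing genes, rose by 0.77 (SE 0.15), but its target S1pr1 (0.15, SE 0.11) did not pass. Of 25 costimulatory and TNF receptor family genes 7 were higher and 5 lower, but with library-size scaling 6 were higher and 10 lower. Tnfrsf18 (GITR, 0.48) and Tnfsf9 (4-1BB ligand, 1.14) were higher, while Slamf1 (-0.66) was lower.

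Fate-associated transcription factors went both ways, 11 higher and 11 lower of 41. Exon length offsets gave 16 higher against 7 lower members, and library-size scaling 7 against 13. Higher were Hopx (0.79), Id2 (0.43), Runx2 (0.55) and Rora (0.51), and Bcl6, from 1.86 ± 0.624 to 4.58 ± 0.731 CPM (SD, n = 4 each). Lower were the memory-associated factors Tcf7 (-0.37) and Eomes (-0.46), and Rbpj (-0.49), the DNA-binding partner of Notch. Prdm1, which encodes Blimp-1, rose by 0.28 (SE 0.10). Its call was lost in 7 of 27 alternatives, with library-size scaling among them (adjusted p = 0.282, edgeR). Tbx21 stood at -0.11 (SE 0.08) and did not pass, except with library-size scaling. Of genes associated with naive and memory cells, Dapl1 fell by 0.98 (SE 0.11) and Il7r by 0.22 (SE 0.08), the latter call lost in 9 of 27 alternatives.

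Genes for making ribosomes and genes for ribosomal proteins moved in opposite directions. Of 50 nucleolar and ribosome assembly genes 38 were lower and 2, Npm1 (0.43) and Ddx10 (0.15), were higher, with a median of -0.38. The call of Ddx10 was lost in 18 of 27 alternatives. Polr1b, a subunit of RNA polymerase I, had 21.04, 23.03, 23.4 and 23.4 CPM in wild-type and 12.8, 13.4, 8.92 and 13.6 CPM in ko libraries (-0.90, SE 0.13, adjusted p = 1.4e-05, edgeR). Nolc1, a nucleolar phosphoprotein, had 71.4, 71.4, 79.97 and 65.3 CPM against 41.9, 37.7, 34.2 and 51.8 CPM (-0.80, SE 0.13). Utp20 (-0.80), Bop1 (-0.73) and Tcof1 (-0.67), which act in processing and transcription of ribosomal RNA, fell with them. Of 80 cytosolic ribosomal protein genes 74 were higher and the other 6 did not pass, with a median of 0.41. Their share of all counts was 14.6% ± 0.588 (SD, n = 4) in wild-type and 17.7% ± 0.4197 (SD, n = 4) in ko libraries. Many have processed copies in the genome, so single members are uncertain.

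Fold changes also followed transcript length. Their Spearman correlation with exon length over 9284 genes (a description, since genes are not independent) was -0.35. In the shortest 20% of genes 42.8% were higher and 10.1% lower, and in the longest 20% the shares were 9.59% and 40.9%. The ribosomal protein genes have a median exon length of 1776 bases, the ribosome assembly genes 3934 and all tested genes 3676. With offsets for exon length, which take out the trend of every library with it, 65 ribosomal protein genes were higher (median 0.28), and 38 assembly genes were lower (median -0.33). What made fold changes follow length was not tested.

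Enzymes that supply nucleotides were lower together with the assembly genes. Of 33 serine, one-carbon and nucleotide synthesis genes 18 were lower and 3 higher (median -0.23). Cad, the enzyme that starts pyrimidine synthesis, had 95.1, 83.04, 94.1 and 85.6 CPM in wild-type and 46.8, 51.2, 40.8 and 59.8 CPM in ko libraries (-0.85, SE 0.13, adjusted p = 6.4e-05, edgeR). The purine enzymes Gart (-0.76), Pfas (-0.64), Ppat (-0.57) and Atic (-0.54) and the folate enzymes Shmt1 (-0.77) and Mthfd1 (-0.66) fell too. Myc, the growth regulator upstream of many of these genes, had 211, 207, 212 and 188 CPM against 164, 176, 139 and 169.9 CPM (-0.33, SE 0.08). Its antagonists Mxd1 (0.82) and Mxi1 (0.36) rose. In polyamine metabolism the synthesis genes Srm (-0.57), Amd1 (-0.45) and Odc1 (-0.22) fell, while Sat1, which starts polyamine breakdown, had 153, 169, 124 and 170.2 CPM in wild-type and 342, 332, 324 and 281 CPM in ko cells (1.05, SE 0.12, adjusted p = 2.3e-06, edgeR). Of 18 amino acid transporters 9 were lower, among them Slc7a1 (-0.44) and Slc38a1 (-0.43), and 3 were higher, among them Slc3a2 (0.33), whose call was lost with library-size scaling.

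**Figure D3:**
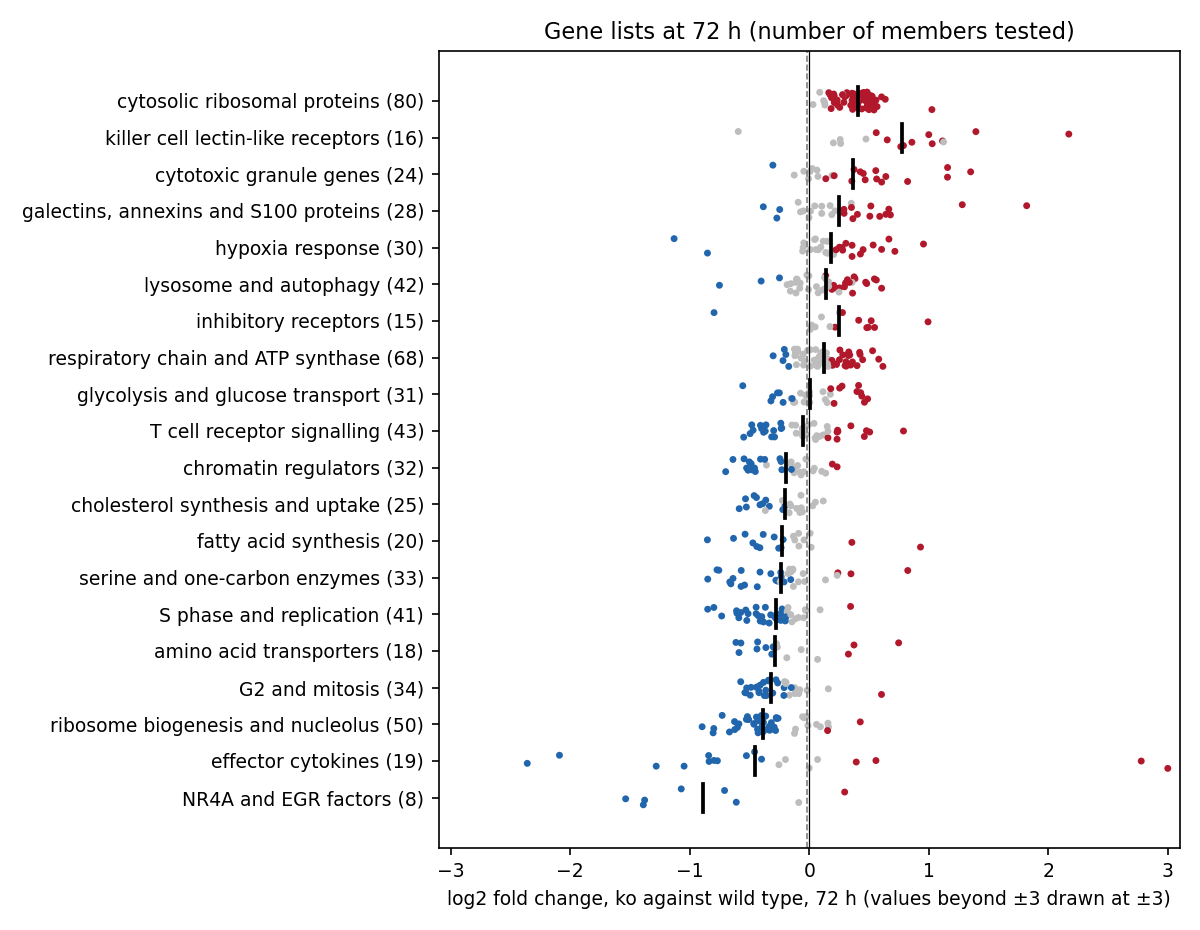
Log2 fold change at 72 h of each tested member of 20 gene lists (red higher, blue lower, grey not called), with the list median as a black bar and the median of all genes as a dashed line. Ribosomal protein and lectin-like receptor genes lie mostly to the right, and ribosome assembly, S phase and NR4A and EGR genes mostly to the left.

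Division genes were lower. Of 41 S phase genes 29 were lower and 1, Orc6 (0.35), was higher (median -0.28). Among 34 genes of G2 and mitosis 23 fell and 1, the centromere histone gene Cenpa (0.60), was higher. Cdc6, which loads the replicative helicase, had 34.2, 37.4, 39.6 and 31.3 CPM in wild-type and 21.9, 17.7, 19.2 and 23.2 CPM in ko libraries (-0.80, SE 0.10, adjusted p = 4.2e-06, edgeR). The helicase subunits Mcm2 (-0.52) and Mcm3 (-0.59), and Rrm1 (-0.53) and Rrm2 (-0.73), which make deoxynucleotides, fell with the mitotic kinase Plk1 (-0.57) and the checkpoint kinase Bub1b (-0.53). Mki67 was at -0.31 (SE 0.10), a call lost with exon length offsets and without wild-type replicate 1 at 72 h (adjusted p = 0.0727 and 0.0638, edgeR). Of the G1 genes, the cyclins Ccne1 (-0.41) and Ccnd2 (-0.32) and the phosphatase Cdc25a (-0.66) were lower, and the CDK inhibitors Cdkn1b (0.37) and Cdkn2d (0.50) were higher.

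E2F factors switch on S phase genes, and their site GGCGGGAA (both strands) occurred in 7 of 33 S phase genes with a promoter window (21.2%). Over all promoter windows the share was 2.52%, over tested genes 4.84%, over lower genes 6.32% and over higher genes 3.29%. It is shown in capitals for 4 lower genes, Mcm3 (chr1:20820267-20820314, minus strand), and Chaf1a (chr17:56040349-56040396), Rrm1 (chr7:102441608-102441655) and Uhrf1 (chr17:56303269-56303316), on the plus strand. In the last 3 it reads on the reverse strand.
Mcm3: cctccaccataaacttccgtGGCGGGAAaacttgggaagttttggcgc
Chaf1a: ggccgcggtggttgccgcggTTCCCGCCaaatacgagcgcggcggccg
Rrm1: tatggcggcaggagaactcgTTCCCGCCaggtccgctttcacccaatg
Uhrf1: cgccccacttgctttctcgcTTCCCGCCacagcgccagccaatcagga
Chaf1a, a histone chaperone subunit at the replication fork, had 71.98, 68.4, 71.2 and 57.5 CPM in wild-type and 42.1, 42.97, 45.1 and 50.8 CPM in ko libraries (-0.57, SE 0.08). Uhrf1, which guides methylation of new DNA, was at -0.43 (SE 0.09).

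Part of the chromatin and DNA repair genes were lower as well. Of 32 chromatin regulators 16 were lower, among them the DNA methyltransferases Dnmt1 (-0.51) and Dnmt3a (-0.64), the polycomb gene Cbx2 (-0.70) and the demethylating enzyme Tet3 (-0.52). These genes are long, with a median of 6904 bases, and with exon length offsets 12 were lower. Of 37 DNA damage and p53 target genes 18 were lower and 5 higher. Brca1 (-0.48) and Exo1 (-0.67), which repair broken DNA, were lower, while Gadd45a (1.47), Gadd45g (0.80) and Btg1 (0.50), which restrain growth, were higher. Of 16 histone genes 7 were higher, among them Hist1h4i (0.78) and Hist1h3c (0.95), and 1, H2afx (-0.24), was lower, a call lost in 8 of 27 alternatives. Most messages of these histones end without a poly-A tail, so poly-A selected libraries count only some of them.

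In glucose use, a first step and later steps went opposite ways. Hk2, a hexokinase, had 121, 106, 106 and 90.5 CPM in wild-type and 72.3, 71.7, 61.8 and 82.7 CPM in ko libraries (-0.56, SE 0.14, adjusted p = 0.00526, edgeR). Gapdh had 5492, 5301, 5451 and 5091 CPM against 6875, 6999, 7403 and 7481 CPM (0.43, SE 0.06, adjusted p = 8.3e-06, edgeR). Of 31 genes of glycolysis and glucose transport 10 were higher and 7 lower, and with library-size scaling 6 and 11. Exon length offsets gave 14 higher and 5 lower members. Aldoa (0.44), Tpi1 (0.40), Pgk1 (0.46) and Pkm (0.41), enzymes of the same stretch, rose as well. Slc2a1, the main glucose transporter, stood at 0.18 (SE 0.07) and did not pass, but it did in 10 of 27 alternatives. Of 30 hypoxia response genes 14 were higher and 2, Epas1 and Hif3a (-0.85), were lower. Bnip3l, a mitophagy receptor, had 363, 394, 303 and 358 CPM in wild-type and 585, 561, 572 and 533 CPM in ko cells (0.67, SE 0.08). Ndrg1 (0.61), Ankrd37 (0.72) and Hilpda (0.53) rose with it. Of 24 TCA cycle genes 9 were lower and 3 higher, with Sdha at -0.31 and Ogdh at -0.38. Respiratory chain and ATP synthase genes, 24 higher and 5 lower of 68, did not keep that balance. Exon length offsets gave 18 higher and 14 lower members, and library-size scaling 12 and 14.

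Many lipid synthesis genes were lower. Of 25 genes of cholesterol synthesis and uptake 11 were lower and the other 14 did not pass. Hmgcs1, at an early step of the pathway, had 247, 256, 321 and 315 CPM in wild-type and 200.003, 184, 199.7 and 207 CPM in ko libraries (-0.53, SE 0.08). Of 20 fatty acid synthesis genes 11 were lower, among them Acly (-0.54), Acaca (-0.63) and Scd2 (-0.47). The higher members were Acss2 (0.36) and Dgat1, which makes storage fat, with 46.6, 47.97, 43.8 and 42.9 CPM in wild-type and 88.7, 94.4, 81.3 and 81.2 CPM in ko cells (0.93, SE 0.08, adjusted p = 3.7e-09, edgeR).

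Stress genes fell into groups that moved apart. In the ATF4 list, 7 of 27 were higher, among them the regulators Ddit3 (0.90), which encodes CHOP, Nupr1, Atf5 (0.44) and Ppp1r15a (0.69). The 12 lower members included the amino acid enzymes Asns (-0.40), Aldh18a1 (-0.47), Shmt2 (-0.43) and Phgdh (-0.27). Ddit3 had 55.8, 54.9, 45.2 and 42.7 CPM in wild-type and 95.4, 93.6, 97.3 and 85.5 CPM in ko libraries. Heat shock genes divided likewise, 8 higher and 9 lower of 34, but with library-size scaling 5 were higher and 15 lower. Dnajb1, the partner of HSP70, rose by 0.66 (SE 0.07), while the mitochondrial chaperone Hspd1 (-0.44) and the chaperonin subunit Cct3 (-0.47) fell.

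The metallothioneins Mt1 and Mt2, which bind zinc and copper, were higher. Mt1 had 125, 115, 116 and 98.3 CPM in wild-type and 213, 224, 211 and 186 CPM in ko cells (0.88, SE 0.12, adjusted p = 1.3e-05, edgeR), and Mt2, whose promoter stretch is printed above, had 19.2, 18.2, 17.9 and 19.03 CPM against 39.96, 39.4, 39.6 and 32.7 CPM (1.03, SE 0.14). Their activator Mtf1 was lower at -0.51 (SE 0.08). Of 42 lysosome and autophagy genes 17 were higher and 3 lower, but with library-size scaling 8 were higher and 12 lower. Gabarap (0.56), Sqstm1 (0.55) and Atg12 (0.48), which act in autophagy, were among the higher ones, and Gusb (-0.75) among the lower.

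Among regulators of death, Bcl2l1, which encodes the survival protein BCL-XL, had 98.9, 89.8, 112 and 104 CPM in wild-type and 72.7, 72.5, 72.2 and 79.7 CPM in ko libraries (-0.45, SE 0.07, adjusted p = 1.2e-05, edgeR). Of 7 pro-survival BCL2 family genes 1, Bcl2l1, was lower and 1 was higher. Of 10 pro-apoptotic members 3 were higher and 1, Bid (-0.40), was lower. With library-size scaling 0 pro-survival genes were higher and 4 lower, and 2 pro-apoptotic genes were higher and 2 lower. Bbc3, which encodes the killer protein PUMA, rose by 0.45 (SE 0.07) and Pmaip1, NOXA, by 0.47 (SE 0.09). Bcl2l11 rose by 0.31 (SE 0.09) and Mcl1 by 0.20 (SE 0.05); both calls were lost with library-size scaling (adjusted p = 0.159 and 0.265, edgeR). Bcl2 stood at -0.08 (SE 0.06) and did not pass, except with library-size scaling. Casp4, which senses bacterial lipopolysaccharide, had 8.397, 10.5, 11.3 and 13.8 CPM in wild-type and 20.4, 25.3, 22.3 and 22.97 CPM in ko cells (1.05, SE 0.12, adjusted p = 9.3e-07, edgeR). Of 28 galectin, annexin and S100 family genes and partners 13 were higher and 3 lower. Among the higher were Anxa2 (0.68), Capg (0.52) and Vim (0.51). Type I interferon stimulated genes were 11 lower and 4 higher of 37, with Oas3 at -0.62 and Ifit1 at 0.99. Without wild-type replicate 4 at 72 h 8 of them were lower and 3 higher.

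Part of the differences changed between 48 h and 72 h. The interaction of genotype and time passed for 316 genes whose log2 fold change was larger, that is more positive or less negative, at 72 h (2.08%). It also passed for 537 genes whose change was smaller, that is more negative or less positive (3.53%). Leaving out 1 library at a time moved these counts to between 158 and 407 and between 233 and 649. Of the 5526 genes called at 72 h, 4689 (84.9%) had the same sign at 48 h, and 811 (14.7%) were also called there in that direction, which is 75.4% of the calls at 48 h. The rule for named genes takes interactions only from genes called at 72 h whose 72 h groups did not overlap. Differences seen at 48 h and gone by 72 h are therefore left out. The largest gains under the rule for named genes were in Serpinb1a, from 1.14 to 3.45 (interaction 2.32, SE 0.22, adjusted p = 1.9e-06, edgeR), and in Mt2, from -0.59 to 1.03 (interaction 1.62). Fam241a, Mt1, Sdcbp2, Socs3, Nt5e and Gpr55 followed, with interactions of 1.31, 1.11, 1.08, 0.96, 0.89 and 0.86. The largest declines under that rule, which takes genes with a mean log2 CPM of at least 3, were in Slc2a6, from -0.07 to -1.69 (interaction -1.62), and Egr3, from -0.10 to -1.54 (interaction -1.43). Nr4a2, Ccdc184, Penk, Kit, Rxra and Epas1 followed, with -1.35, -1.32, -1.27, -1.25, -1.21 and -1.16. Of the S phase genes 14 had a smaller fold change, in that sense, at 72 h than at 48 h, and 3 were lower at 48 h. The median of the S phase list went from -0.05 at 48 h to -0.28 at 72 h. Of the ATF4 genes 13 had a smaller fold change at 72 h, among them Asns, from -0.05 to -0.40 (interaction -0.35). At 48 h 9 of the 27 ATF4 genes were higher and 0 lower (median 0.26), where 670 and 405 of all 15197 genes were. At 72 h 7 were higher and 12 lower (median -0.15). Gzma went from 1.49 to 0.82 (interaction -0.67) and Prdm1 from 0.92 to 0.28 (interaction -0.64).

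**Figure D4:**
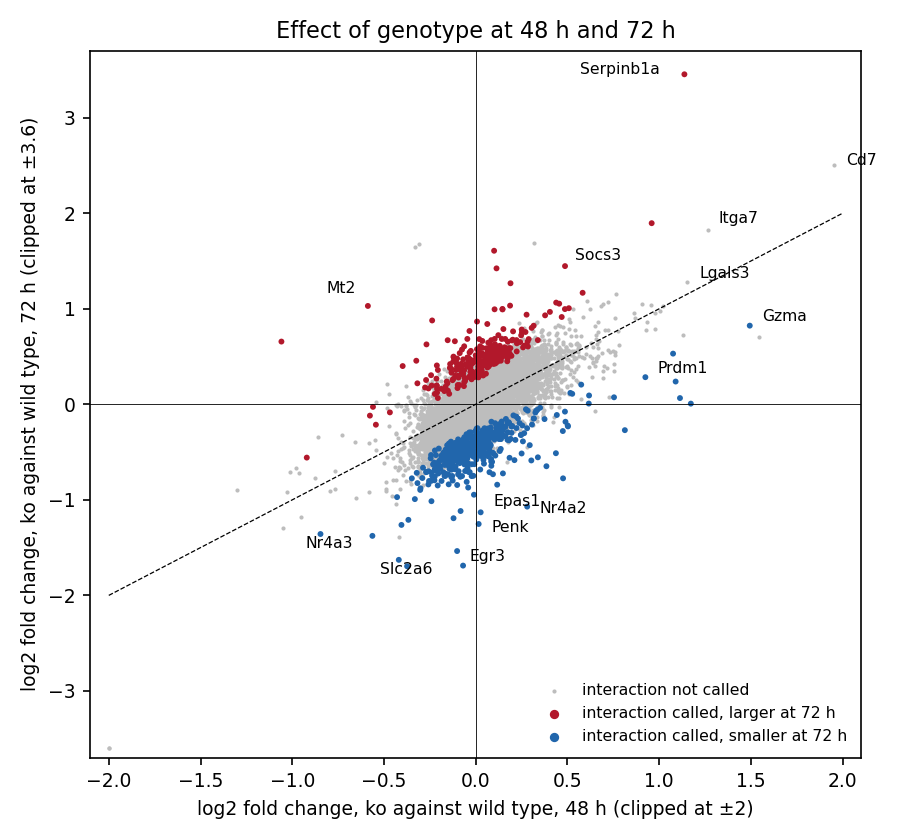
Log2 fold change of ko against wild type at 72 h (vertical axis) against that at 48 h (horizontal axis) for genes with a mean log2 CPM of at least 3; red and blue mark genes whose interaction passed, and the dashed line marks equal values. Serpinb1a moves from 1.14 to 3.45, Slc2a6 from -0.07 to -1.69 and Mt2 from -0.59 to 1.03.

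Some of the largest differences clustered by position. On chromosome 11, BC018473 (chr11:116752167-116759373) had 72.9, 75.3, 69.6 and 82.9 CPM in wild-type and 0, 0.0602, 0.0708 and 0 CPM in ko libraries. Its neighbours St6galnac1 and Gm11735 had no count in any ko library, against 3.18 ± 0.294 and 1.92 ± 0.391 CPM (SD, n = 4 each) in wild-type cells, and were at least 133-fold and 79.6-fold lower with 3 counts over the ko group as the limit. St6galnac2, which adds sialic acid to O-linked sugars, had 11.96, 10.2, 13.8 and 12.7 CPM against 0.09200, 0.481, 0.4601 and 0.886 CPM (-4.66, SE 0.26), and Mxra7, 59.8 kb to the other side, was at -1.96 (SE 0.17). Of the next genes, Rhbdf2 (-0.10) and Jmjd6 (0.15) did not pass, while Mettl23 (0.92) was higher and Srsf2 (-0.39) lower. Within 5 Mb of BC018473, itself included, 72 of 165 tested genes were called (43.6%, against 36.3% elsewhere). Of the 165, 10 were called and differed at least 2-fold (6.06%, against 2.73% elsewhere), 6 of them within 0.15 Mb. Socs3 (chr11:117966079-117970047) and Cd7 (chr11:121036747-121039418), described above, lie in the 5 Mb window. On the chromosome that carries Batf3, Fcgr3, an Fc receptor gene, had 0.468, 0.709, 0.637 and 0.793 CPM in wild-type and 8.71, 8.15, 10.5 and 10.2 CPM in ko cells (3.84, SE 0.20, adjusted p = 1.3e-12, edgeR). Within 25 Mb of Batf3 74 of 197 tested genes were called (37.6%, against 36.3% elsewhere), and 15 of the 197, Batf3 itself included (7.61%, against 2.7% elsewhere), were called and differed at least 2-fold. These windows were chosen after the values were seen. Among the 15 genes near Batf3 were neighbouring relatives, namely Ifi214, Ifi203-ps, Ifi211, Ifi202b and Ifi205, and Fcgr2b beside Fcgr3. Several were low. 3110045C21Rik, Ifi202b, Kmo, Gm5069 and Rd3 stayed below 1 CPM in all 8 libraries. Gm15853, Sh2d1b1 and Fcgr2b reached at most 1.26, 1.56 and 1.14 CPM. Sequence carried along with the ko allele was not tested and cannot be told apart from the effect of Batf3 in these samples.

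**Figure D5:**
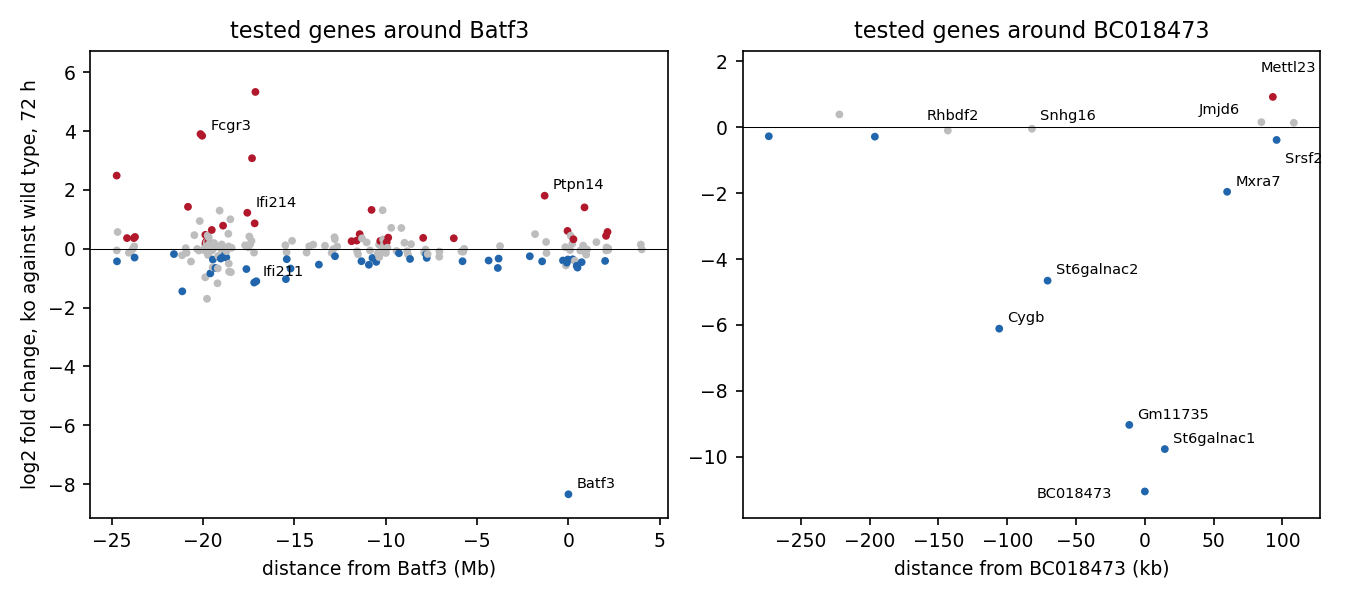
Log2 fold change at 72 h of tested genes by distance from Batf3 (left, in Mb) and from BC018473 (right, in kb), with red for higher, blue for lower and grey for genes not called. The fall around BC018473 includes the genes from Cygb to Mxra7 except Snhg16.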

How the data were processed

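The authors deposited a table of raw counts per gene for the 16 libraries. Per the labels' protocols, poly-A selected, stranded libraries were made from 100 ng of total RNA. The submitters' processing notes list STAR 2.7, featureCounts, bcl2fastq 2.2.0 and the build GRCm38; the sources used here give neither the annotation release nor the strand setting. Counts were tested in R 4.3.3 with edgeR 4.0.16 (quasi-likelihood, robust) on all 16 libraries in 4 groups, which share 1 estimate of the spread. Genes passed filterByExpr with a minimum count of 10, scaling was TMM, and the threshold was a Benjamini-Hochberg adjusted p of 0.05 over 15197 genes. CPM values are TMM-scaled. The standard error is the fold change divided by the root of F. Alternatives used limma 3.58.1 and DESeq2 1.42.0. The procedure was tested on simulated data. Positions are from GENCODE M21.

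The genes, the 64 gene lists and the tests were chosen with earlier results of these data known. Named were the 15 largest rises and falls among called genes at a mean log2 CPM of 3 or more whose groups did not overlap (clone-named genes, segments and pseudogenes left out), up to 6 called genes with the largest change per list, a fixed set of genes, and the 8 largest interactions each way. The interactions had to meet the same conditions at 72 h, so differences gone by then could not be named by that rule. Some further list members were named after their values were seen, to fill in steps of a pathway. Each group has 4 libraries, and same-numbered libraries did not deviate together over 9284 genes. Across the genotypes, deviations correlated at 0.08 to 0.32 among replicates 1 and 2. Among replicates 3 and 4 the range was -0.13 to 0.41. Between replicates 1 or 2 of a genotype and replicates 3 or 4 of the other it was -0.38 to 0.08. What lay behind these ranges was not tested. In single genes, such as Cd24a, Socs3 and Il10, replicates 1 and 2 lay above replicates 3 and 4 in both genotypes.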

Additional observations from a re-analysis of the deposited data

Results flagged for a closer look

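Each of the 258 named genes was looked at in both 72 h groups for a library far from the other 3. Of 516 groups of 4 libraries, 27 held such a library, and chance gives about 1 in 20. Ko replicate 1 was far lowest in Rhbdf2 (10.2 CPM). Ko replicate 2 was far lowest in Ndrg1 (265 CPM). Ko replicate 3 was far highest in Batf3 (0.389 CPM), Cenpa (414 CPM), Hspa1b (305 CPM) and Mxra7 (1.84 CPM) and far lowest in Ccl4 (18.2 CPM), Mki67 (474 CPM), Slc38a1 (114 CPM), Slc7a1 (97.2 CPM) and St8sia1 (18.8 CPM). Ko replicate 4 was far highest in Bcl2l1 (79.7 CPM), Mcm3 (172 CPM), Notch2 (24.8 CPM), Nr4a3 (50.3 CPM) and Plk1 (45.1 CPM) and far lowest in Mt2 (32.7 CPM). Wild-type replicate 1 was far lowest in Polr1b (21.04 CPM). Wild-type replicate 3 was far highest in Ccne1 (57.7 CPM), Cd8a (340.5 CPM), Gata3 (26.1 CPM) and Lad1 (25.3 CPM) and far lowest in St8sia4 (20.5 CPM). Wild-type replicate 4 was far highest in Havcr2 (21.5 CPM) and Orc6 (107 CPM) and far lowest in Cd68 (5.36 CPM) and Tigit (86.6 CPM). For Batf3 the value is the 11 counts of 1 ko library, and the groups of Cd8a and Rhbdf2 did not differ by the test.

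For 103 of the named genes the log2 fold change differed between 72 h and 48 h by the interaction test (edgeR, adjusted p below 0.05). The values that follow are interactions, the log2 fold change at 72 h minus that at 48 h. The fold change was larger at 72 h in Serpinb1a (2.32), Mt2 (1.62), Fam241a (1.31), Gadd45a (1.31), Mt1 (1.11), Sdcbp2 (1.08), Socs3 (0.96), Ifit1 (0.96) and AA467197 (0.94). It was also larger in Nt5e (0.89), Gpr55 (0.86), Cxcr6 (0.85), Gbp2 (0.80), Hopx (0.64), Dnajb1 (0.63), Gngt2 (0.63), Btg1 (0.62) and Sat1 (0.60). Smaller gains were those of Nupr1 (0.58), Jun (0.58), Ptpn2 (0.58), Dgat1 (0.55), Lamp2 (0.51), Pgk1 (0.50), Fgl2 (0.50), Gadd45g (0.49) and Fth1 (0.47). After these came Gapdh (0.46), Npm1 (0.46), Vim (0.44), Aldoa (0.42), Srgn (0.42), Gabarap (0.42), Ftl1 (0.39), Atg12 (0.38) and Tigit (0.38). The list of gains ends with Tpi1 (0.36), Cenpa (0.32) and Tnfrsf18 (0.31). Other genes had a smaller fold change at 72 h than at 48 h, that is more negative or less positive. First of these were Il13 (-2.62), Ccr8 (-1.93), Csf2 (-1.90), Slc2a6 (-1.62), Egr3 (-1.43), Nr4a2 (-1.35), Ccdc184 (-1.32), Il3 (-1.28) and Penk (-1.27). Next in that direction were Kit (-1.25), Rxra (-1.21), Epas1 (-1.16), Xcl1 (-1.07), Lad1 (-1.03), Tnfsf14 (-0.96), Ccr4 (-0.86), Plxna1 (-0.84) and Nr4a3 (-0.81). They were followed by St3gal1 (-0.77), Ebi3 (-0.69), St3gal2 (-0.68), Gusb (-0.68), Cdc6 (-0.67), Gzma (-0.67), Nr4a1 (-0.67), Tnfsf8 (-0.66) and Prdm1 (-0.64). Negative interactions were also those of Polr1b (-0.59), Rrm2 (-0.58), Bop1 (-0.57), Gart (-0.53), Exo1 (-0.53), Chaf1a (-0.52), Cemip2 (-0.51), Aldh18a1 (-0.50) and Dnmt3a (-0.49). Interactions closer to 0 were those of Mcm2 (-0.49), Shmt1 (-0.48), Il7r (-0.48), Eomes (-0.47), Shmt2 (-0.46), Ppat (-0.44), Tet3 (-0.44), Plk1 (-0.44) and Mcm3 (-0.44). The negative ones went on with Acly (-0.42), Cpox (-0.41), Uhrf1 (-0.41), Hmgcs1 (-0.40), Phgdh (-0.39), Slc7a1 (-0.39), Nfatc1 (-0.39), Bub1b (-0.39) and Cdc25a (-0.38). Near the end stood Rel (-0.37), Psmd3 (-0.37), Scd2 (-0.36), Atic (-0.36), Slc38a1 (-0.35), Asns (-0.35), Brca1 (-0.33), Cct3 (-0.31) and Rrm1 (-0.29). Last came Psme3 (-0.28).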

How the results depend on the processing

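Over 27 alternatives, 16 of which left out 1 library, counts over all genes stayed within 1.5 times of the values given except as follows. With library-size scaling 1464 genes were higher and 4779 lower, and 183 and 1231 had a larger and a smaller fold change at 72 h. A minimum count of 50 left 117 higher and 78 lower genes at 2-fold, since fewer genes are tested. A test against a 1.5-fold change left 90 higher and 64 lower genes, 77 and 56 of them with a fitted change of at least 2-fold, and 5 and 10 interactions. Larger fold changes at 72 h numbered 566 with DESeq2 and 491 with exon length offsets, and there the cause was not tested. Offsets for exon length kept 4252 (76.9%) of the 5526 calls. Counts of list members, many of them small, moved by over 1.5 times in 280 of 3456 comparisons of a list with an alternative.

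Leaving out 1 library gave 2101 to 2737 higher and 2343 to 3193 lower genes, 219 to 275 and 164 to 213 at 2-fold, and 158 to 407 larger and 233 to 649 smaller interactions. The interaction counts were the least stable of these: they came to 193 and 325 without wild-type 48 h replicate 1, 177 and 311 without its replicate 4, 172 and 302 without ko 48 h replicate 3, and 158 and 288 without wild-type 72 h replicate 3. Without ko 72 h replicate 1 the larger ones numbered 209, and without ko 72 h replicate 3 the smaller ones 233. The interaction cannot be fitted with the 72 h groups alone.

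With the replicate number as a block (replicate block), 2491 genes were higher and 2908 lower, with 280 and 429 interactions. Over 9284 genes the numbers did not pair the libraries: deviations of same-numbered libraries correlated at -0.13 to 0.16. For differently numbered libraries the range was -0.38 to 0.41.

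Of 243 named genes called at 72 h, 229 kept direction and call in every alternative apart from the test against a 1.5-fold change. With that test included, 56 of the 243 did. The sign turned in 4 genes, all of them not called. Bcl2 was at 0.05303 with exon length offsets. Cd40lg was at 0.312 without wild-type 72 h and ko 48 h replicate 4 and between -0.943 and 0.312 with 1 library left out. Hif1a was at -0.0811 with library-size scaling and between -0.00399 and 0.0839 with 1 library left out. Il2 was at -0.0534 with library-size scaling, -0.0681 with limma-voom, -0.0768 with exon length offsets and between -0.207 and 0.295 with 1 library left out.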

Other observations

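Genes that build sialic acid caps on cell surface sugars went both ways outside the chromosome 11 stretch. Of 26 tested members of that list 8 were higher and 5 lower (median 0.09), with 5 higher and 6 lower under library-size scaling. St3gal1, which caps core 1 O-glycans on CD8 T cells, had 40.99, 40.9, 44.9 and 43.5 CPM in wild-type and 19.9, 19.4, 22.01 and 22.97 CPM in ko libraries (-1.01, SE 0.08, adjusted p = 3.3e-09, edgeR), and the groups were far apart. St8sia1 (-0.61), St3gal2 (-0.60) and Gne (-0.44), the gene of the first enzyme of sialic acid synthesis, fell too. St6gal1 (0.78), St8sia4 (0.60) and St3gal6 (0.58), which cap other sugar chains, rose.

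Of 22 TGF-beta and Notch pathway genes 8 were lower and 3 higher, and with exon length offsets 7 and 4. Smad3, a signal carrier of TGF-beta, had 26.7, 22.9, 23.2 and 20.6 CPM in wild-type and 15.2, 16.5, 13.8 and 14.6 CPM in ko cells (-0.64, SE 0.09), and the receptor gene Notch2 was at -0.57. Of 15 iron handling genes 4 were higher and 4 lower (median -0.16), and with library-size scaling 3 and 7. Fth1, ferritin heavy chain, had 249.97, 248, 263 and 253 CPM against 371, 373, 348 and 348 CPM (0.51, SE 0.06, adjusted p = 1.2e-06, edgeR). Ftl1, the light chain, rose by 0.46 (SE 0.07), while the haem synthesis gene Cpox fell by 0.52 (SE 0.07). Of 37 proteasome genes 7 were higher and 11 lower, with Psmd3 at -0.42 and Psme3 at -0.42. Among interferon gamma induced GTPases Iigp1 (-0.61) and Tgtp2 (-0.39, a near-identical copy of Tgtp1) were lower and Gbp2 (0.40) was higher.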
